A study of Mus with 6 samples.

Results

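A group of 10 transcription factor genes that set or hold helper T cell fate was followed in CD4+ T cells activated with and without neutralization of VEGF-B. Chosen by name, with earlier results of these data known, they were Tbx21, Gata3, Foxp3, Bcl6, Maf, Ahr, Runx1, Runx3, Ikzf2 and Eomes. All 10 were found among the 10995 protein-coding genes listed. Wild-type mouse CD4+ naive T cells of the spleen were stimulated for 3 days with anti-CD3 (5 μg/mL), anti-CD28 (2 μg/mL) and IL-2 (100 U/mL). During these days they were exposed to anti–VEGF-B or to normal goat IgG, each at 1 μg/mL, and 3 libraries were sequenced per treatment. Apart from IL-2, the treatment description names no cytokine, such as IL-12 or IL-4, that would steer helper fate. Neither the number of mice nor whether the replicates were separate cultures is given, so that p-values measure only the spread between these libraries.

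An activated CD4+ T cell can become one of several helper types, and each type depends on a leading transcription factor that switches on its cytokines and restrains the other types. T-bet (gene Tbx21), helped in some T cells by the related EOMES, drives Th1 cells and interferon-γ, and GATA-3 drives Th2 cells with IL-4, IL-5 and IL-13. FOXP3 defines regulatory T (Treg) cells, in many of which Helios (gene Ikzf2) is also made, and BCL-6 defines follicular helper T (Tfh) cells. c-MAF, the aryl hydrocarbon receptor (gene Ahr) and the RUNX factors act across these types. In bulk RNA, which averages over all cells of a library, fewer cells of a type and less RNA per cell cannot be told apart.

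The values were taken as FPKM, read numbers put on a common footing by transcript length and library size. On that reading, levels can be set side by side between genes. The number of reads behind them is unknown, and the spread between libraries is the error given throughout. Differences between treatments are log2 fold changes of FPKM + 1, fitted in limma to the 8816 genes whose 6 libraries averaged 1 FPKM or more. Adjusted p refers to Benjamini-Hochberg adjustment over all of them, with calls made under 0.05. The added 1 makes the change of a low gene look smaller. Across all tested genes the median log2 fold change was -0.15, against which each factor is also read. The balance of calls depended on how the libraries were scaled to each other, with 2099 genes lower and 429 higher as deposited but 913 lower and 880 higher after quantile normalization.

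The libraries carried the T cell markers that the label calls for, with summed FPKM of 10 markers between 618 and 670 with anti–VEGF-B and between 624 and 722 with IgG. Among all tested genes limma called 23.8% lower with anti–VEGF-B, and of the 10 markers 3: Thy1 (log2 fold change -0.75, adjusted p = 0.00768), Cd3e (-0.51, 0.0197) and Cd5 (-0.38, 0.0343). Their part in the results was not tested. The CD8 co-receptor gene Cd8a reached at most 0.182 FPKM, while its partner Cd8b1 lay between 2.27 and 4.51 FPKM. Of the B cell markers, 1 of 5 was analysed, and it stayed within 0.665 and 1.34 FPKM. The summed NK cell markers were between 2.17 and 2.35 FPKM with anti–VEGF-B and between 2.01 and 5.00 FPKM with IgG. The highest sum was that of IgG replicate 3, where Fcer1g was at 3.29 FPKM. Klrd1 (0.0390 FPKM) and Klrk1 (0.0124 FPKM) had their lowest IgG values there. IgG replicate 3 stood apart in the sum of the myeloid markers, of which 5 of 7 were analysed. Their sum ran from 12.6 to 14.3 FPKM with anti–VEGF-B and from 13.6 to 33.2 FPKM with IgG. The lysozyme gene Lyz2 was at 16.4 FPKM in this library and between 3.26 and 4.19 FPKM in the other 5. Tyrobp (5.43 FPKM) and Csf1r (1.57 FPKM) were also highest in IgG replicate 3. Cd68 differed little, at 8.99 FPKM there and 8.45 and 8.01 FPKM in IgG replicates 1 and 2. Fcgr3, at 0.771 FPKM, was below anti–VEGF-B replicate 1 (0.958 FPKM).

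The factors stood at very different levels. Runx3 was the highest, at 126 ± 4.46 FPKM with IgG (SD, n = 3) and at the 97.4th percentile of all listed genes. It made up 63.8% ± 1.54 of the summed FPKM of the 10 factors with IgG and 68.6% ± 1.24 with anti–VEGF-B. With IgG the order below it was Gata3, Tbx21, Maf, Runx1, Ikzf2, Bcl6, Ahr, Foxp3 and Eomes. Each neighbour in this order lay apart from the next in all 3 IgG libraries except Tbx21 and Maf, whose values overlapped. With anti–VEGF-B the order was the same but for Ahr and Bcl6. The highest Ahr value with IgG lay under the lowest Bcl6 value, while with anti–VEGF-B its mean was above that of Bcl6 and the ranges overlapped. Foxp3 and Eomes had means over the 6 libraries under 1 FPKM and were read from the fit over all listed genes.

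Of the 8 factors tested with the filter, Ikzf2 and Ahr rose with anti–VEGF-B and Gata3 fell, while 5 did not pass. These 3 calls stand beside 28.7% called among all tested genes, 4.87% higher and 23.8% lower. In the limma fit over all listed genes, where 24.4% were called, neither Foxp3 nor Eomes passed. The median log2 fold change of the 8 factors was -0.066, which is 0.086 above that of all tested genes. The values of the treatments did not overlap for 5 of the 10 factors, 3 lower (Gata3, Foxp3 and Runx1) and 2 higher (Ikzf2 and Ahr). Among all listed genes 47.2% did not overlap, 38.4% lower and 8.87% higher. For a single gene an exact permutation test of 3 against 3 libraries cannot give a two-sided p under 0.1. With IgG replicate 2 left out, limma called 0 of the 10 factors, and 3 had an unadjusted p under 0.05, beside 15.4% and 34.7% of all tested genes. With anti–VEGF-B replicate 3 left out it also called 0, and 4 had an unadjusted p under 0.05, beside 9.74% and 32.8%.

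**Figure D1:**
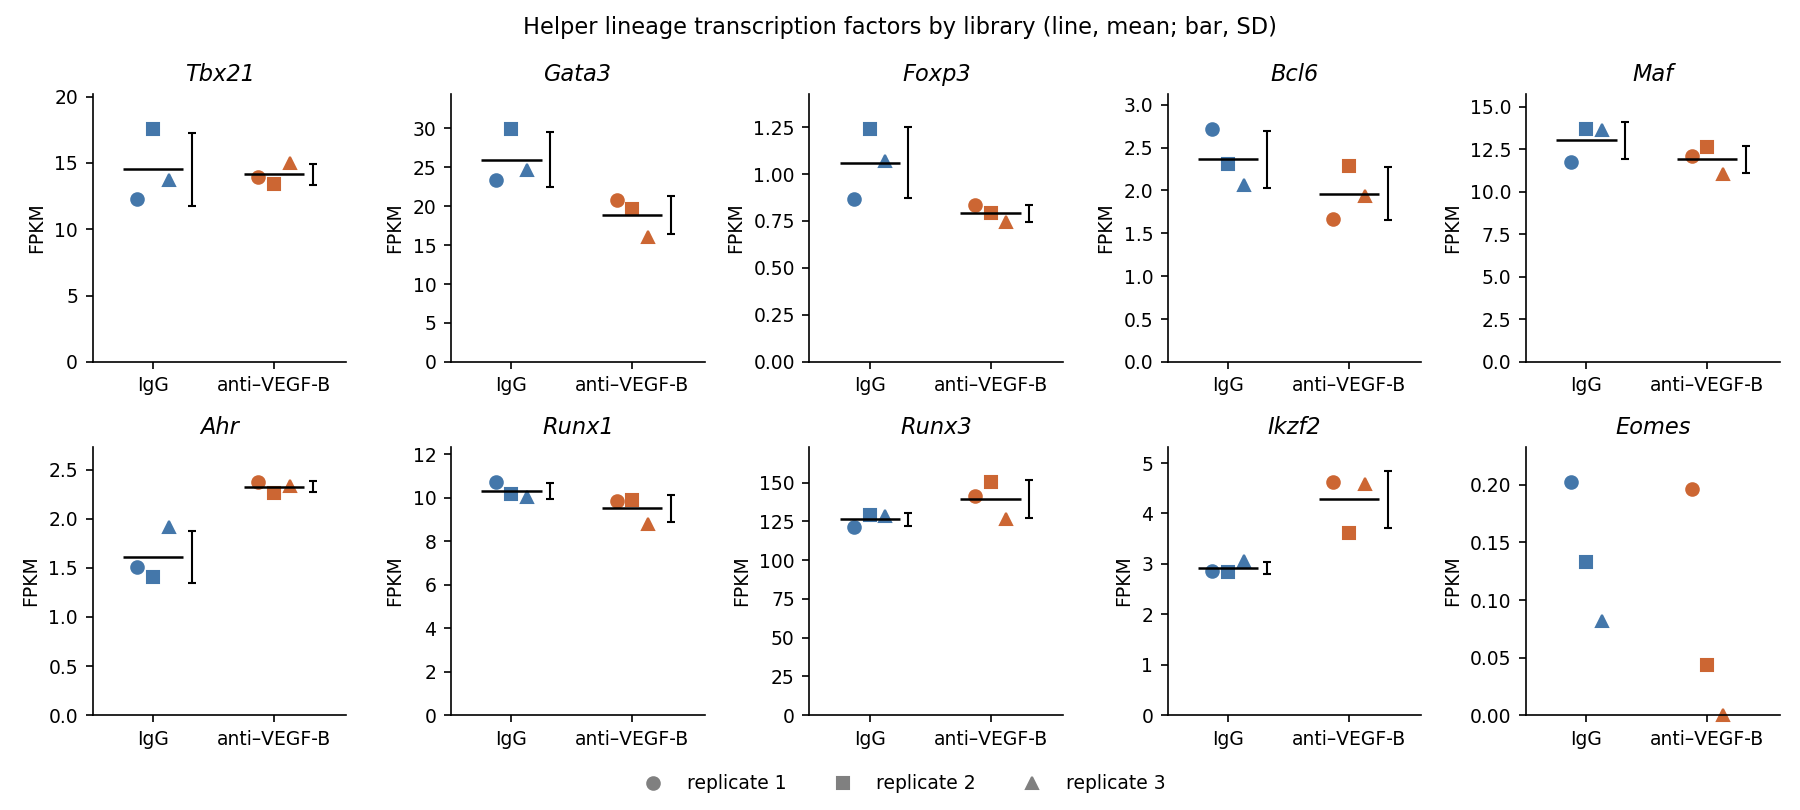
FPKM of each of the 10 factors (vertical axes from 0, own scale per gene) in the 3 IgG and 3 anti–VEGF-B libraries, with replicate number by symbol, a line at the mean and a bar of 1 SD (no mean is drawn for Eomes, which has a value listed at 0). Gata3 sits lower in all 3 anti–VEGF-B libraries (16.1 to 20.7 against 23.3 to 30.0 FPKM), and Ahr and Ikzf2 sit higher in all 3.

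The Th1 factor Tbx21 (ENSMUSG00000001444.2, chromosome 11 of GRCm38, 97098071 to 97115331, minus strand) was at 12.3, 17.6 and 13.7 FPKM in the IgG libraries. With anti–VEGF-B it was at 14.0, 13.4 and 15.0 FPKM, inside the range of the IgG libraries. Its log2 fold change was -0.025 (standard error 0.123, 95% interval -0.30 to 0.25, limma adjusted p = 0.892). IgG replicate 2 held the highest value, and without it the difference was 0.11. It was also above 0 under the 4 other scalings and without anti–VEGF-B replicate 2, and it passed under none of 17 alternatives.

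Eomes (ENSMUSG00000032446.14, chromosome 9, 118478212 to 118486132, plus strand), which encodes the T-box factor best known from memory and cytotoxic T cells, was barely present. The IgG libraries had 0.203, 0.133 and 0.0815 FPKM. The anti–VEGF-B libraries had 0.196 and 0.0432 FPKM, and replicate 3 was listed at 0. The treatments overlapped, with a log2 difference of -0.080 (limma adjusted p = 0.493). No Eomes value reached the lowest Foxp3 value of 0.745 FPKM.

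Gata3 (ENSMUSG00000015619.10, chromosome 2, 9857078 to 9890034, minus strand) was the second most abundant factor. It was at 23.3, 30.0 and 24.7 FPKM with IgG and at 20.7, 19.6 and 16.1 FPKM with anti–VEGF-B. Every anti–VEGF-B library was under every IgG library. The mean fell from 26.0 ± 3.51 to 18.8 ± 2.42 FPKM (SD, n = 3 each), 0.725 times the IgG level. The log2 fold change was -0.44 (standard error 0.120, 95% interval -0.71 to -0.17, limma adjusted p = 0.0256), and -0.29 once the all-gene median was subtracted. The adjusted p was 0.0761 without IgG replicate 2, which held the highest value, and 0.0867 without anti–VEGF-B replicate 3, which held the lowest. Median centring brought the log2 fold change to -0.24 (limma adjusted p = 0.0991, and 0.0242 to 0.125 over 17 alternatives). The highest adjusted p, 0.125, was that of limma with no moderation.

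Foxp3 (ENSMUSG00000039521.12, chromosome X, 7579676 to 7595243, plus strand) was low in every library. It was at 0.868, 1.24 and 1.07 FPKM with IgG and at 0.835, 0.793 and 0.745 FPKM with anti–VEGF-B. The anti–VEGF-B values were the 3 lowest of the 6, but the nearest values of the treatments lay close together. The log2 fold change was -0.20 (standard error 0.0952, 95% interval -0.42 to 0.018, limma adjusted p = 0.147 over all listed genes), which is -0.047 relative to the median of those genes.

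Ikzf2 (ENSMUSG00000025997.13, chromosome 1, 69531214 to 69687245, minus strand) encodes Helios, an Ikaros-family zinc finger protein. It was at 2.86, 2.84 and 3.06 FPKM with IgG and at 4.63, 3.62 and 4.59 FPKM with anti–VEGF-B. All 3 anti–VEGF-B libraries lay above the IgG libraries, and replicate 2 was the nearest to them. The mean rose from 2.92 ± 0.121 to 4.28 ± 0.572 FPKM, 1.46 times the IgG level. The log2 fold change was 0.42 (standard error 0.110, 95% interval 0.17 to 0.67, limma adjusted p = 0.0231), and 0.57 once the all-gene median was subtracted, and 209 of the tested genes had a larger one. The call was lost when anti–VEGF-B replicate 1 (limma adjusted p = 0.0741), anti–VEGF-B replicate 3 (0.0877) or IgG replicate 2 (0.0523) was left out. It was also lost in limma with no moderation (adjusted p = 0.0838), against 0.00911 to 0.0877 over 16 alternatives. Under each of the 4 other scalings the log2 fold change was larger, at up to 0.65.

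Ahr (ENSMUSG00000019256.17, chromosome 12, 35497974 to 35535038, minus strand) encodes the ligand-activated aryl hydrocarbon receptor, which takes part in Th17 cells and in other IL-10 or IL-22 producing T cells. It was at 1.51, 1.41 and 1.91 FPKM with IgG and at 2.38, 2.26 and 2.34 FPKM with anti–VEGF-B. The anti–VEGF-B libraries were close to each other and above all IgG libraries, of which replicate 3 came nearest. The mean rose from 1.61 ± 0.267 to 2.33 ± 0.0569 FPKM, 1.45 times the IgG level. The log2 fold change was 0.36 (standard error 0.107, 95% interval 0.11 to 0.60, limma adjusted p = 0.0371), and 0.51 once the all-gene median was subtracted. Leaving out IgG replicate 3 gave 0.44 (limma adjusted p = 0.0359). The adjusted p was 0.0751 without IgG replicate 1, 0.0924 without IgG replicate 2, and 0.0923, 0.0767 and 0.105 without anti–VEGF-B replicates 1, 2 and 3, against 0.0118 to 0.105 over 16 alternatives. Under the 4 other scalings the log2 fold change was 0.40 to 0.59 and the call was kept. In limma with no moderation the call was lost (adjusted p = 0.0856).

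All 3 calls were also made without IgG replicate 3, the library with the highest sum of myeloid markers. Without it Gata3 had a value of -0.48 (limma adjusted p = 0.0432), Ikzf2 one of 0.45 (0.0468) and Ahr the value given above.

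Bcl6 (ENSMUSG00000022508.5, chromosome 16, 23965052 to 23988852, minus strand) encodes the repressor that leads Tfh cells. It was at 2.72, 2.31 and 2.07 FPKM with IgG and at 1.67, 2.29 and 1.94 FPKM with anti–VEGF-B. The treatments overlapped through anti–VEGF-B replicate 2, and the log2 fold change was -0.18 (95% interval -0.46 to 0.088, limma adjusted p = 0.266). Maf (ENSMUSG00000055435.6, chromosome 8, 115682942 to 115707794, minus strand), whose product drives IL-4, IL-10 and IL-21, was more abundant. It was at 11.8, 13.7 and 13.6 FPKM with IgG and at 12.1, 12.6 and 11.0 FPKM with anti–VEGF-B. These values also overlapped (log2 fold change -0.12, 95% interval -0.33 to 0.092, limma adjusted p = 0.354). After quantile normalization, median centring and cyclic loess both differences were slightly above 0.

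Runx1 and Runx3 bind the same DNA motif together with CBFβ, and Runx3 is best known as the factor of cytotoxic T cells that also works with T-bet in Th1 cells. Runx1 (ENSMUSG00000022952.16, chromosome 16, 92601466 to 92826149, minus strand) was at 10.7, 10.2 and 10.0 FPKM with IgG and at 9.83, 9.90 and 8.79 FPKM with anti–VEGF-B. The treatments did not overlap, but the difference was small (log2 fold change -0.11, 95% interval -0.30 to 0.087, limma adjusted p = 0.361) and was above 0 after quantile normalization, median centring and cyclic loess. Runx3 (ENSMUSG00000070691.10, chromosome 4, 135120652 to 135177990, plus strand) was at 121, 129 and 128 FPKM with IgG. With anti–VEGF-B it was at 141, 151 and 127 FPKM, of which replicate 3 lay among the IgG values. The log2 fold change was 0.14 (95% interval -0.043 to 0.32, limma adjusted p = 0.210), and it passed only after median centring (0.34, adjusted p = 0.0250, against 0.0250 to 0.486 over 17 alternatives). One value was given per gene, so transcripts from the alternative promoters of the RUNX genes were not told apart.

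**Figure D2:**
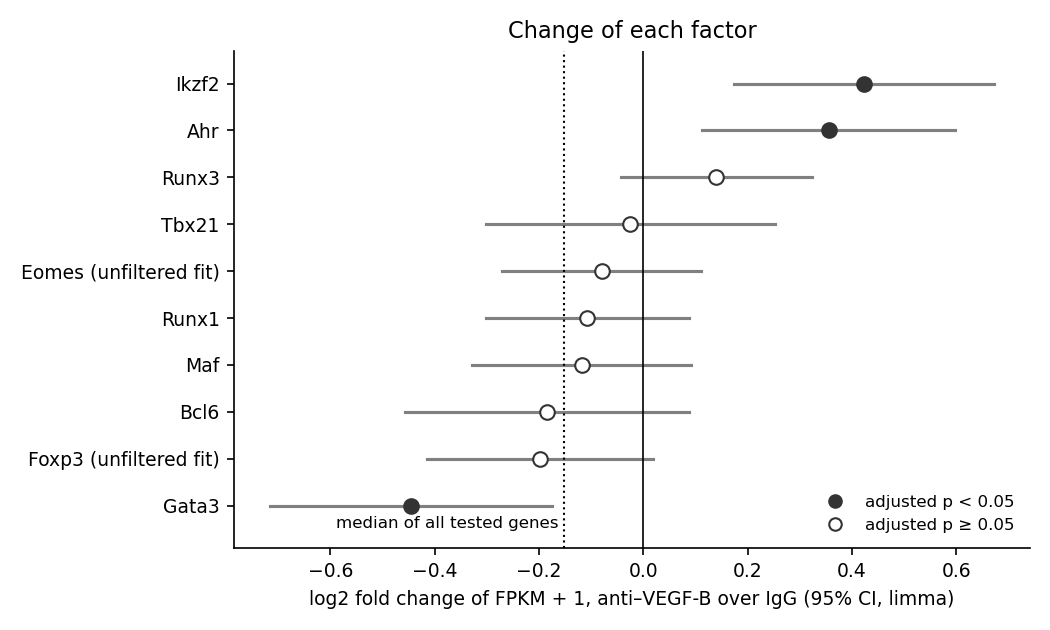
log2 fold change of FPKM + 1, anti–VEGF-B over IgG, of each factor (horizontal axis) with its 95% confidence interval from limma, filled where the adjusted p is under 0.05 and ordered by value, with a dotted line at the median of all tested genes (-0.15). Ikzf2 (0.42), Ahr (0.36) and Gata3 (-0.44) are the filled points, and the interval of every other factor spans 0.

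Reads from overlapping genes could enter some of these values. By the RefSeq table of GRCm38, 5 of the 10 factor genes share their span with another annotated gene. The neighbour is a long noncoding RNA gene for Bcl6, Runx1, Eomes and Gata3, while Foxp3 overlaps both the noncoding Flicr and the protein-coding Ccdc22. The library kit keeps strand, but whether the counting used it is not given in the sources used here. Ahr, Ikzf2, Maf, Runx3 and Tbx21 had no such neighbour.

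Ratios of factors within a library are not changed by multiplying a whole library by a constant, and they ask whether paired factors kept their balance. Quantile normalization and cyclic loess, which shift genes by their level, can change them. Of 6 ratios, chosen with earlier results of these data known, 3 did not overlap between treatments. The share over all pairs of genes was not computed, and among single listed genes 47.2% did not overlap. Tbx21 to Gata3 and Foxp3 to Ikzf2 each hold a factor that was called by itself, so they are not separate from those calls. Tbx21 to Gata3, which sets the Th1 factor against the Th2 factor, was at 0.527, 0.587 and 0.556 with IgG and at 0.674, 0.683 and 0.933 with anti–VEGF-B. Gata3 was thus the more abundant of the pair in all 6 libraries, by less with anti–VEGF-B. The log2 ratio was 0.44 higher (standard error 0.160, exact permutation p = 0.1, adjusted over the 6 ratios 0.2), and 0.29 higher without anti–VEGF-B replicate 3.

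Foxp3 to Ikzf2, the pair of Treg factors, was at 0.303, 0.437 and 0.350 with IgG and at 0.180, 0.219 and 0.162 with anti–VEGF-B. This was the largest shift of the 6, with a log2 ratio lower by a difference of -0.95 (standard error 0.199, exact permutation p = 0.1, adjusted 0.2), and -0.62 when 1 FPKM was added to both genes. Runx1 to Runx3 was at 0.0886, 0.0787 and 0.0781 with IgG and at 0.0695, 0.0657 and 0.0694 with anti–VEGF-B, so that Runx3 exceeded Runx1 by 11.3 to 12.8 times in the former and 14.4 to 15.2 times in the latter. The difference in log2 ratio was -0.26 (standard error 0.0645, exact permutation p = 0.1, adjusted 0.2). On the FPKM + 1 scale it was -0.25 as deposited but -0.044 after quantile normalization and -0.046 after cyclic loess, an alternative added after seeing the data. Under these 3 scalings, in the same order, the Tbx21 to Gata3 difference was 0.42, 0.47 and 0.46, and that of Foxp3 to Ikzf2 was -0.62, -0.66 and -0.66. An exact test of 3 against 3 libraries cannot reach a lower p.

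The other 3 ratios overlapped between treatments. Tbx21 to Bcl6 differed by 0.25 on the log2 scale (standard error 0.276), Bcl6 to Maf by -0.14 (0.222) and Bcl6 to Prdm1, the gene of its antagonist BLIMP-1, by -0.16 (0.158), with exact permutation p of 0.5, 0.6 and 0.5. Their standard errors were as large as the differences or nearly so. The ratio of Tbx21 to Eomes was left out because of the value listed at 0.

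**Figure D3:**
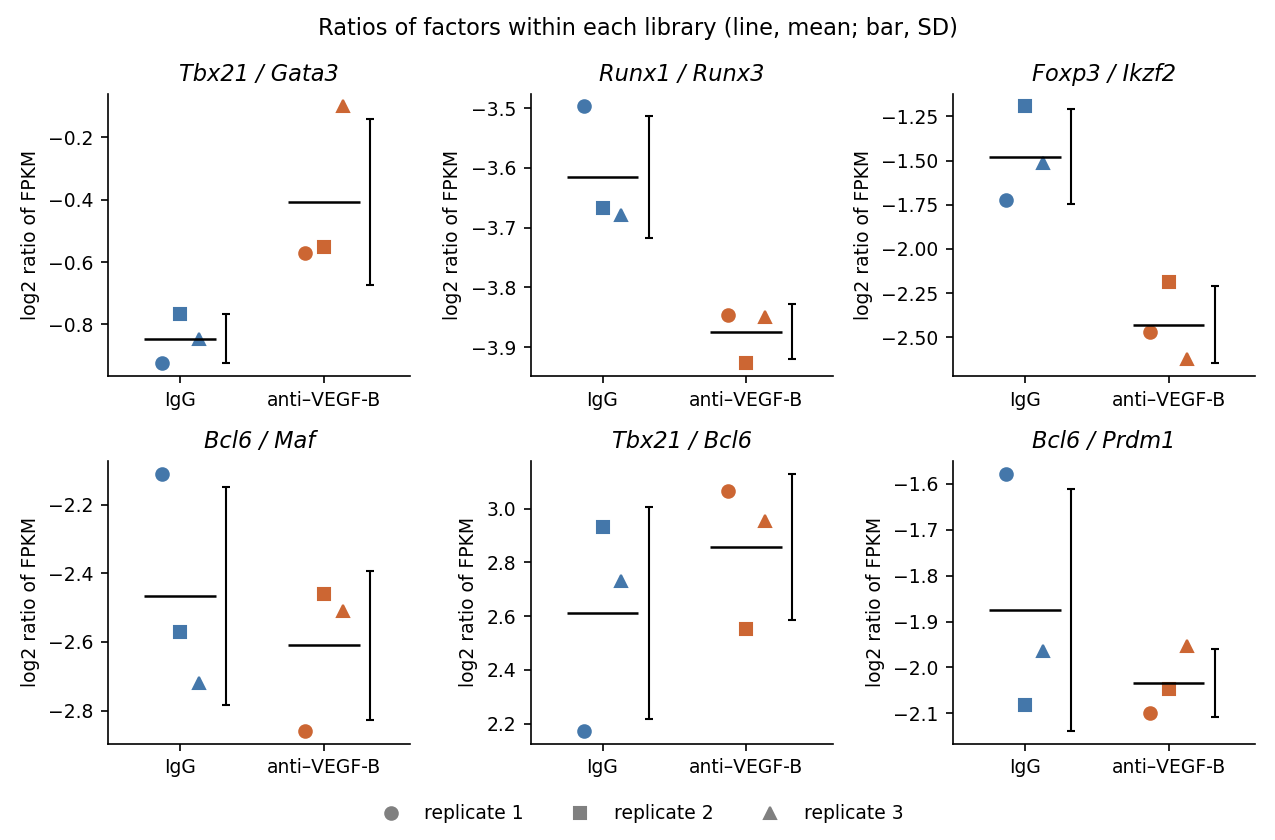
log2 ratio of the FPKM of paired factors within each library (vertical axes, own scale per pair) in the 3 IgG and 3 anti–VEGF-B libraries, with the mean as a line and 1 SD as a bar. Tbx21 / Gata3 is higher and Foxp3 / Ikzf2 and Runx1 / Runx3 are lower in all 3 anti–VEGF-B libraries, and the lower row shows the 3 pairs that overlap.

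Genes that work with the factors or answer to them were taken from 9 lists written by hand with earlier results of these data known. Of 126 such genes, 87 were tested, 30 were lower and 9 higher, which is 44.8% called. Among all tested genes 28.7% were called, 23.8% lower and 4.87% higher, and each list below stands beside these shares. Given how the lists were made, the larger share cannot be read as a result about them. After median centring 17 partner genes were lower and 19 higher, beside 807 and 1365 of all 8816 tested genes. After quantile normalization the counts were 22 and 14, beside 913 and 880. The median log2 fold change of the partner genes was -0.18 beside -0.15 for all genes.

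In the Th1 list, 5 of 11 tested genes were lower and 0 higher by limma, with a median of -0.24. They included the IL-27 receptor gene Il27ra (log2 fold change -0.64) and the granzyme gene Gzmb (-0.79). The adjusted p from limma was 0.00714 for Il27ra and 0.0127 for Gzmb. Tbx21 itself was not called. The interferon-γ gene Ifng overlapped between treatments and was not called either (-0.19, limma adjusted p = 0.404). None of the 11 was higher at an unadjusted p under 0.05 either, beside 702 of all 8816 tested genes. A list this short would hold few such genes at that share. After median centring 3 were lower and 1 higher, with a median of -0.041.

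In the Th2 list, 6 of 13 tested genes were lower and 2 higher, with a median of -0.31. The cytokine gene Il13, a direct target of GATA-3, was at 9.04, 18.4 and 11.7 FPKM with IgG and at 5.37, 4.02 and 4.31 FPKM with anti–VEGF-B. Its log2 fold change was -1.29 (limma adjusted p = 0.00685). Of the other cytokine genes named above for GATA-3, Il4 was lower (-0.73, limma adjusted p = 0.0138). Il5 overlapped between treatments and was not called (-0.27, adjusted p = 0.174). Gfi1, a repressor that helps Th2 cells grow (-0.79, adjusted p = 0.00657), and the chemokine receptor gene Ccr4 (-0.63, adjusted p = 0.0111) were also lower in limma. Nfil3 (0.43, adjusted p = 0.00845) and Bhlhe41 (0.42, adjusted p = 0.0245), which encode transcription factors tied to Th2 cytokines, were higher in limma. Among the called genes of all those tested, 83.0% were lower, and 6 of the 8 called here were.

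In the Treg list, 3 of 15 tested genes were lower and 3 higher, with a median of -0.12. After median centring 1 was lower and 5 higher, and the median was 0.077. The lower genes were those of the IL-2 receptor α chain Il2ra (-0.97, limma adjusted p = 0.00664), of the checkpoint receptor Ctla4 (-0.40, adjusted p = 0.0179) and of the TGF-β anchor Lrrc32 (-0.36, adjusted p = 0.0344). The higher genes were Foxo1, whose product maintains naive and regulatory T cells (0.48, limma adjusted p = 0.00875), the checkpoint receptor gene Tigit (0.35, adjusted p = 0.0111) and the folate receptor gene Izumo1r (0.37, adjusted p = 0.0129). Lrrc32 did not pass under 9 of its 16 alternatives, the 4 other scalings among them. Ctla4 passed under 13 of 17. It did not pass after median centring, with no moderation, or without anti–VEGF-B replicate 2 or 3.

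In the Tfh list, 7 of 13 tested genes were lower and 1 higher, with a median of -0.29. After median centring 4 were lower and 2 higher with a median of -0.086, and 4 were lower when scaled to Actb or without IgG replicate 2. The inhibitory receptor gene Btla (-0.94, limma adjusted p = 0.00469), the cytokine gene Il21 (-0.91, adjusted p = 0.00499) and the IL-6 receptor gene Il6ra (-0.68, adjusted p = 0.00711) were lower. The gene that rose was Ascl2, a factor that starts the Tfh programme, from 9.15 ± 1.77 to 19.5 ± 2.21 FPKM (1.02 on the log2 scale, limma adjusted p = 0.00488). Bcl6 was not called in the same libraries.

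In the Th17 list, 4 of 8 tested genes were lower and 1 higher, with a median of -0.34. The activation factor gene Irf4 was lower (-1.67, limma adjusted p = 0.00488), together with Il21 and Il6ra, which this list shares with the Tfh list. Hif1a was higher (0.38, adjusted p = 0.0139). The cytokine genes Il17a, Il17f and Il22 were not analysed here.

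Of the AHR list, 6 of 11 genes were tested, with 2 higher, 1 lower and a median of 0.19. Tiparp, a well-known AHR target that feeds back on the receptor, was at 153, 127 and 165 FPKM with IgG and at 213, 206 and 232 FPKM with anti–VEGF-B. It rose with a log2 fold change of 0.55 (limma adjusted p = 0.00875). The stress factor gene Nfe2l2 fell (-0.74, adjusted p = 0.00488). Arnt, which encodes the DNA-binding partner of the receptor, had 0.20 (adjusted p = 0.0965). The target genes Cyp1a1, Cyp1b1, Ahrr and Nqo1 were not analysed here.

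Another list held genes tied to the RUNX factors and to the choice between helper and cytotoxic fate. Limma called 4 of its 7 tested genes lower and 0 higher, with a median of -0.30. At an unadjusted p under 0.05 it also had 0 higher, beside 702 of all 8816 tested genes, a share at which 7 genes would hold few. Median centring left 1 lower. Zbtb7b, which encodes the helper fate factor ThPOK, fell from 14.8 ± 2.95 to 8.37 ± 1.61 FPKM (-0.75 on the log2 scale, limma adjusted p = 0.0125). Tcf7, the gene of TCF-1, was also lower (-0.44, adjusted p = 0.0106). Cbfb, which encodes the shared RUNX partner, was at 20.9, 23.7 and 23.0 FPKM with IgG and at 19.2, 17.6 and 17.7 FPKM with anti–VEGF-B. Its log2 fold change was -0.30 (limma adjusted p = 0.0275), but it did not pass under any of the 4 other scalings and was at -0.094 after median centring. Cd4 had a log2 fold change of 0.034 (limma adjusted p = 0.780).

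Among 12 tested relatives of the factors, limma called 2 lower and 0 higher, while 4 were lower and 2 higher at an unadjusted p under 0.05. After quantile normalization 2 were lower and 3 higher, and the list median went from -0.071 to 0.060. As deposited, the lower ones were the Ikaros-family gene Ikzf3 (-0.60, limma adjusted p = 0.00960) and the small MAF gene Mafg (-0.54, adjusted p = 0.0177). Of the other Ikaros-family genes, Ikzf1 (-0.024), Ikzf4 (-0.43) and Ikzf5 (-0.23) had an adjusted p of 0.872, 0.0625 and 0.198 from limma. Runx2 (0.20), Foxp1 (0.22) and Arnt, given above, passed only after quantile normalization, median centring and cyclic loess. Foxp4 (-0.25), Maff (0.065), Mafk (-0.072) and Tbx6 (-0.070) did not pass under any alternative.

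The last list held factors taken to oppose at least some member of the group. Such roles are not one-sided, since Foxo1 is also in the Treg list and Tcf7 and Lef1 are in the RUNX list. No opposition was tested. Of its 9 tested genes, Tcf7 and Lef1 (-0.35, limma adjusted p = 0.0362) were lower and Foxo1 was higher. Lef1 passed under 8 of 17 alternatives and under none of the 4 other scalings, and Tcf7 did not pass after median centring. Prdm1, whose product and BCL-6 repress each other's genes, was at 8.13, 9.77 and 8.06 FPKM with IgG and at 7.15, 9.46 and 7.50 FPKM with anti–VEGF-B. Its log2 fold change was -0.10 (limma adjusted p = 0.549). Id2 was uneven with anti–VEGF-B, at 102, 95.5 and 208 FPKM against 177 to 183 FPKM with IgG (log2 fold change -0.50, adjusted p = 0.142). Leaving out anti–VEGF-B replicate 3 gave -0.86 (limma adjusted p = 0.0102), against 0.0102 to 0.417 over its alternatives. Bach2 (-0.019), Id3 (0.063), Klf2 (-0.097) and Zeb1 (0.19) were not called, of which Zeb1 passed after quantile normalization, median centring and cyclic loess. The list median of -0.097 became 0.072 after quantile normalization.

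**Figure D4:**
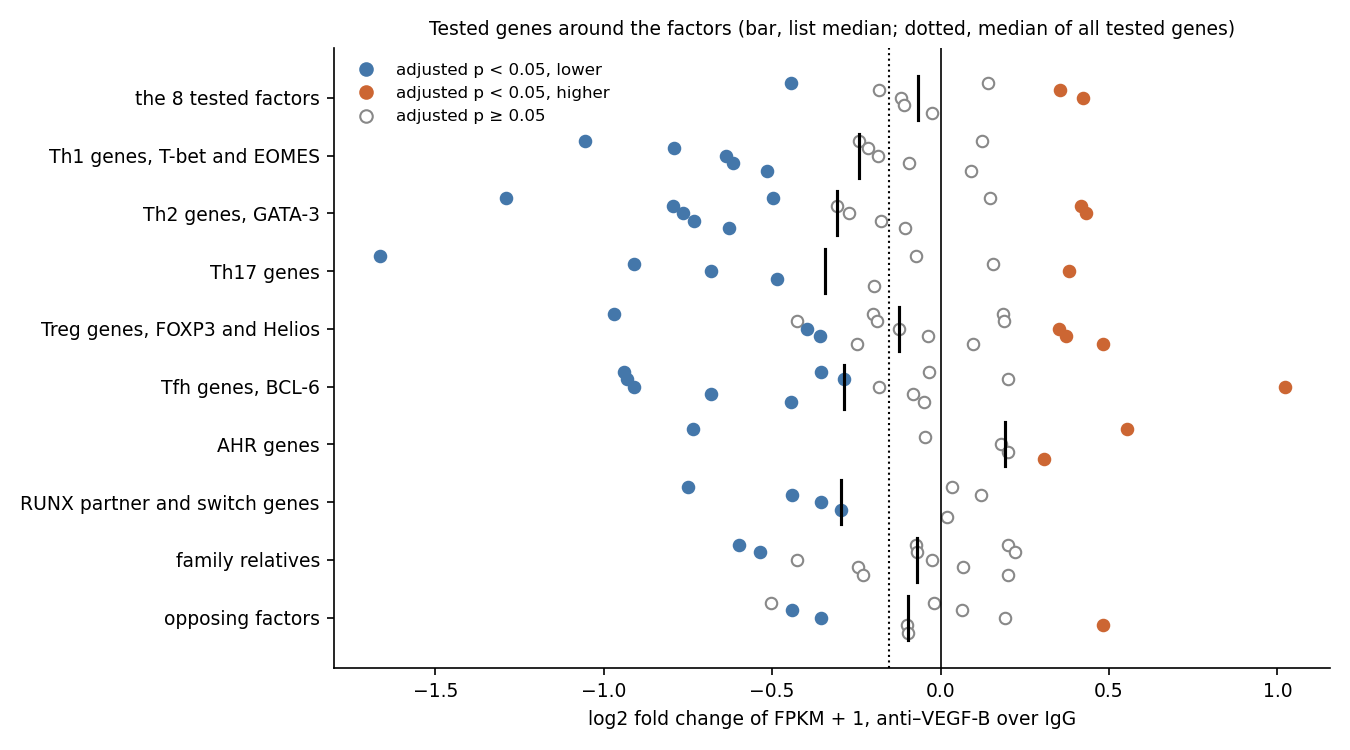
log2 fold change of FPKM + 1, anti–VEGF-B over IgG (horizontal axis), of every tested gene in the 9 lists and of the 8 tested factors, 1 point per gene, coloured where the adjusted p is under 0.05, with a bar at each list's median and a dotted line at the median of all tested genes (-0.15). Il13 (-1.29) and Irf4 (-1.67) lie farthest to the left of their lists and Ascl2 (1.02) farthest to the right, and the AHR list has a median above 0 (0.19), as the relatives and opposing factors also had after quantile normalization (0.060 and 0.072).

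The plot of alternatives gathers what other processing did to each factor. Gata3 stayed below 0 and Ahr, Ikzf2 and Runx3 above 0 under every alternative run. The sign of Tbx21, Bcl6, Maf, Runx1, Foxp3 and Eomes changed with the scaling between libraries.

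**Figure D5:**
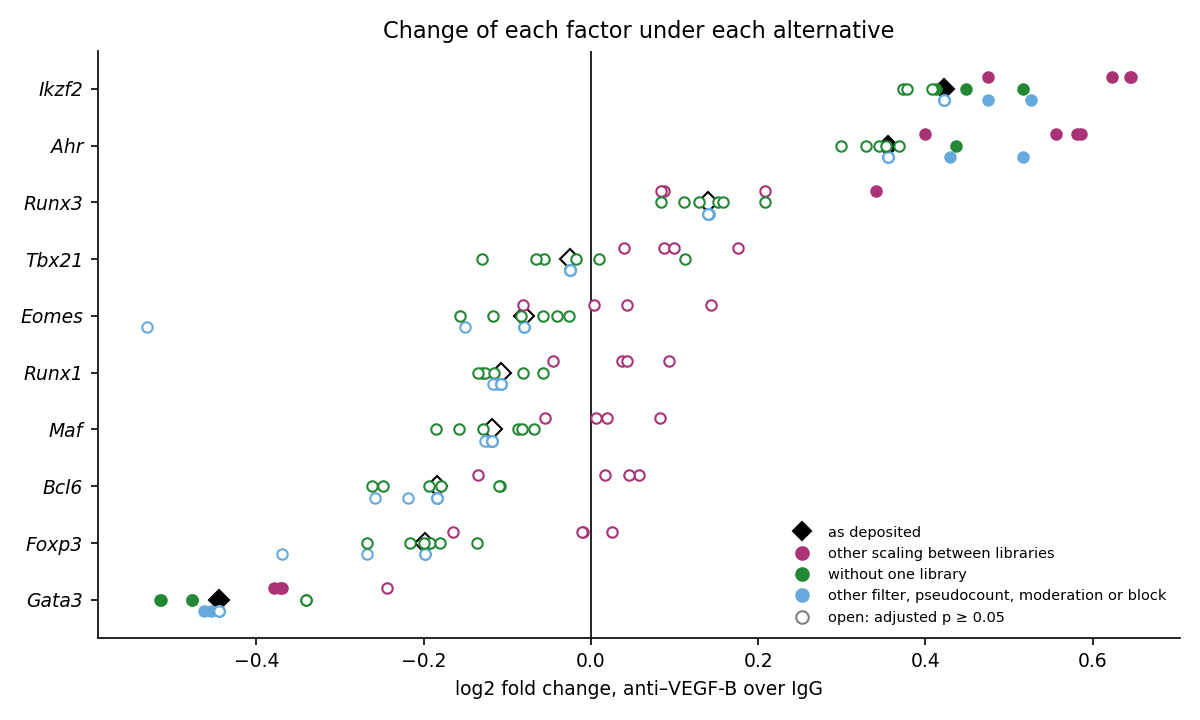
log2 fold change of each factor, anti–VEGF-B over IgG (horizontal axis), as deposited (diamond), under other scalings, without each library in turn, and with another filter, pseudocount, moderation or block, open where the adjusted p is at least 0.05. Ahr (0.30 to 0.59) and Ikzf2 (0.37 to 0.65) lie to the right of 0 and Gata3 (-0.52 to -0.24) to the left throughout.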

How the data were processed

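The authors aligned reads of stranded libraries to GRCm38/mm10 with hisat2 and quantified genes with StringTie and Ballgown. The table deposited by the authors, although named as raw data, holds values with decimals, which were taken as FPKM. No normalization between libraries is stated. Read numbers could not be recovered, since low values (under 0.3 FPKM) had a common step between libraries in no more than 1.37% of genes. Each of the 6 columns was assigned through its sample label.

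Genes averaging 1 FPKM or more (8816 of 10995) were fitted as log2(FPKM + 1) in limma 3.58.1 in R 4.3.3 (empirical Bayes with trend, no covariate). The procedure was first tested on simulated data. These held no shift between libraries, so they cannot speak to the scaling. Exact permutation tests used scipy 1.17.1. No count model was run. The alternatives changed the scaling between libraries, the filter (none, or a mean of 5 FPKM or more), the pseudocount (0.1 or 0.5), the moderation, the replicate block and the libraries included.

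The factors, partner lists and ratios were chosen with earlier results of these data known. Named partners were up to 3 genes with the lowest p called in each direction per list, together with Prdm1, Cbfb and Arnt and every tested relative or opposing factor. Some genes that this rule names are not reported here. Cd4, the markers and, after their values were seen, Il4, Il5 and Ifng were named outside this rule. Gene lengths, promoter and protein sequences were not used here.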

Additional observations from a re-analysis of the deposited data

How the results depend on the processing

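Other scalings changed the sign of factors that had not passed. After quantile normalization the log2 fold change was 0.0997 for Tbx21, 0.057 for Bcl6, 0.019 for Maf, 0.043 for Runx1 and 0.0041 for Eomes. After median centring it was 0.18 for Tbx21, 0.025 for Foxp3, 0.017 for Bcl6, 0.083 for Maf, 0.093 for Runx1 and 0.14 for Eomes. After cyclic loess it was 0.087 for Tbx21, 0.046 for Bcl6, 0.0056 for Maf, 0.037 for Runx1 and 0.043 for Eomes, and scaled to Actb it was 0.039 for Tbx21. With 1 library left out, Tbx21 ran from -0.13 to 0.11 (above 0 without IgG replicate 2 and, at 0.0099, without anti–VEGF-B replicate 2), and the log2 ratio of Bcl6 to Maf differed by -0.27 to 0.035 (above 0 without IgG replicate 1) and, on the FPKM + 1 scale, by 0.038 after quantile normalization and 0.040 after cyclic loess. None of the factors among these passed.

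Of the 10 factors, 3 were called, 2 higher and 1 lower. In limma with no moderation the count was 0 in each direction, and of all genes 12 were called, 6 lower and 6 higher, with 0 partner genes in each direction. At an unadjusted p under 0.05 it had 3 factors, 1 lower and 2 higher, and 30 partner genes lower and 14 higher. Testing from 5 FPKM upward, which leaves Ahr and Ikzf2 untested, gave 1 in all and 0 higher, with 1331 genes called over all tested genes and 989 lower. Median centring gave 0 factors lower, 1 at an unadjusted p under 0.05. Leaving out 1 library gave 0 to 3 factors called, 0 to 2 higher and 0 to 1 lower. It gave 859 to 2467 genes over all, 695 to 2071 lower and 164 to 396 higher, and 19 to 30 partner genes lower and 5 to 9 higher. Over all genes, quantile normalization gave 913 lower and 880 higher calls, median centring 807 and 1365, and cyclic loess 938 and 852, while scaled to Actb 1674 genes were called, 1309 lower. Partner genes higher numbered 14 after quantile normalization, 14 after cyclic loess and 19 after median centring, which left 17 lower. The cause of these shifts was not tested.

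Whether libraries of the same replicate number belong together is not given, and the values cannot decide it. The deviations of same-numbered libraries from their group means correlated at -0.030, 0.11 and 0.089 for replicates 1, 2 and 3. Libraries of different number correlated at -0.17 to 0.0997. Only anti–VEGF-B replicate 2 correlated best with its own number, while replicate 1 did so with IgG replicate 2 (0.057) and replicate 3 with IgG replicate 1 (0.0997). With the replicate block 3 factors were called, and 2578 genes over all, beside 2528 without it. The depth is unknown, which limits what can be said of Eomes and Foxp3.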
